A study of Mus musculus with 4 samples.

Results

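Newborn cortical neurons that carry Neurod1 transcripts were followed in the rostral neocortex of E15.5 mouse embryos by single-cell RNA sequencing. A cell was taken as a member when it held at least 2 UMIs of Neurod1, at most 1 UMI of Eomes, fewer than 3 of the radial glia genes Hes5, Slc1a3, Sox9, Pax6 and Hes1, 0 UMIs of Gad2, at most 1 UMI of Mki67 and Top2a together, and at most 1 UMI of Krt8, Cytl1 and Lbhd2 together. A UMI (unique molecular identifier) is a count of 1 captured transcript molecule. Of 28672 cells that passed the quality filter, 2690 met the rule, 802 and 523 in the 2 i4F-Nes libraries and 752 and 613 in the 2 CTR libraries. The members were therefore selected on these 13 genes, whose levels among them are given as a description only.

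Cortical excitatory neurons are born from radial glia, largely through intermediate progenitors that express the T-box factor Eomes. As these progenitors leave the cell cycle, the basic helix-loop-helix factor Neurod1 comes on for a short time in the subventricular and lower intermediate zones, where young neurons are multipolar, and it is turned off as they polarise and migrate along radial fibres towards the cortical plate. Related factors, Neurod2 and Neurod6, stay on in the maturing neuron, where layer factors such as Bcl11b and Tbr1 then mark neurons that project below the cortex.

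i4F-Nes embryos had the genotype Nestin-Cre;i4F;ROSA-STOP-rtTA, in which Nestin-Cre, active in the nervous system, releases a doxycycline-dependent transactivator that drives the 4 reprogramming factors Pou5f1, Sox2, Klf4 and Myc. CTR embryos were littermates with the genotype i4F;ROSA-STOP-rtTA, so they carried the factors and the silent transactivator without the Cre. Both groups received doxycycline, at 0.2 mg/ml in the drinking water of the pregnant females over 4 days of gestation (E10.5 to E14.5), and the tissue was taken at E15.5. The labels do not say whether the 2 libraries of a group came from separate embryos, so p-values measure only the spread between these libraries, which may be technical.

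The newborn neurons had a median of 13810.5 and 13569 UMIs per cell in the i4F-Nes libraries and 14945.5 and 11420 in the CTR libraries, and their summed UMIs ran from 7692707 to 12957582 per library. Of the 2690 members, 3 barcodes recurred in more than 1 library. CPM here means UMIs of a gene per 1000000 UMIs summed over the named cells of a library. Xist, which coats the silenced X of female cells, had 828 and 1001 CPM in i4F-Nes newborn neurons and 0 and 1091 CPM in CTR newborn neurons, so CTR replicate 1 lacked a transcript that the other libraries held. Its part in the group differences was not tested.

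Neurod1 (GRCm38 chromosome 2, 79452521 to 79456751, minus strand), the gene that selected the cells, was mostly caught as a few molecules. Exactly 2 UMIs were found in 323 and 222 i4F-Nes members and in 239 and 282 CTR members, and 5 or more in 205 and 126 i4F-Nes and 251 and 112 CTR members. The median was 3 UMIs in every library and the highest count was 36. Over the members the Neurod1 level was 241 and 268 CPM in i4F-Nes and 242 and 231 CPM in CTR.

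The other 3 markers of the population were present in all libraries. Sstr2 (chromosome 11, 113619342 to 113626028), a somatostatin receptor, stood at 212 and 94.6 CPM in i4F-Nes, against 250 and 106 CPM in CTR, so that replicate 1 was over replicate 2 in both groups. Nrn1 (chromosome 13, 36725361 to 36735131), which encodes the membrane-anchored neuritin, stood at 339 and 211 CPM in i4F-Nes, against 317 and 262 CPM in CTR. Nrp2 (chromosome 1, 62703285 to 62818695), a co-receptor for class 3 semaphorins, stood at 56.7 and 42.2 CPM in i4F-Nes, against 48.7 and 27.6 CPM in CTR. The groups overlapped for all 3.

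Capture at low depth leaves many members without a UMI of a marker, and free RNA can put one into a cell that does not express it, so shares were set beside those of Gad2-positive interneurons. Cells with at least 3800 UMIs were thinned to that number, and cells with fewer were left out. Sstr2 was then detected in 50.4% and 25.3% of members in i4F-Nes and 52.9% and 33.8% in CTR. Among Gad2-positive cells it was detected in 4.62% and 8.42% in i4F-Nes and 7.91% and 3.38% in CTR. Without thinning the members' shares were 76.3% and 48.0% in i4F-Nes and 82.4% and 59.1% in CTR, against 5.59% and 11.02% of Gad2-positive cells in i4F-Nes and 14.9% and 5.72% in CTR, whose median depth was 7277 to 8666 UMIs. Nrp2 was rarer, in 17.9% and 10.4% of thinned i4F-Nes and 15.47% and 10.3% of thinned CTR members, against 1.54% and 6.32% of Gad2-positive cells in i4F-Nes and 8.47% and 1.54% in CTR. Unthinned, Nrp2 was found in 38.3% and 22.8% of members in i4F-Nes and 42.0% and 20.7% in CTR, against 4.20% and 13.6% of Gad2-positive cells in i4F-Nes and 17.6% and 5.22% in CTR.

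The rule cut through a continuous range. Cells that met every other condition but held only 1 Neurod1 UMI numbered 644 and 539 in i4F-Nes and 539 and 735 in CTR, and their Sstr2 level was 86.9 and 37.6 CPM in i4F-Nes and 82.5 and 51.9 CPM in CTR. Members with exactly 2 Neurod1 UMIs had 163 and 54.9 CPM of Sstr2 in i4F-Nes and 163 and 74.6 CPM in CTR. On the side of Eomes, 84 and 38 i4F-Nes and 108 and 61 CTR members held 1 Eomes UMI. These had 378 and 215 CPM of Sstr2 in i4F-Nes and 348 and 210 CPM in CTR, against 194 and 87.7 CPM in i4F-Nes and 233 and 96.2 CPM in CTR members without an Eomes UMI. Cells just outside, with 2 Eomes UMIs, had 401 and 231 CPM in i4F-Nes and 377 and 178 CPM in CTR.

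The promoters of the marker genes are shown because the factor that selects the cells binds E-boxes, which have the letters CANNTG. Each window runs from 250 bases before to 50 bases after the annotated start (RefSeq, GRCm38.p6), and 3 of the 4 markers had an entry, the exception being Nrn1. E-boxes are in capitals. The Neurod1 window is chr2:79456587-79456886 on the minus strand, the Nrp2 window chr1:62703067-62703366 on the plus strand and the Sstr2 window chr11:113619077-113619376 on the plus strand.
Neurod1: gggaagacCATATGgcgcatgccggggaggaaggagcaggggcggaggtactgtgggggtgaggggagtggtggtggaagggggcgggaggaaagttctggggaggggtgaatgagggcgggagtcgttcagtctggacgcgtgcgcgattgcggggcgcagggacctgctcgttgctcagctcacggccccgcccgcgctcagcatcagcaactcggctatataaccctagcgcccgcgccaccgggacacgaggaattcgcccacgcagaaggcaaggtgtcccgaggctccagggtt
Nrp2: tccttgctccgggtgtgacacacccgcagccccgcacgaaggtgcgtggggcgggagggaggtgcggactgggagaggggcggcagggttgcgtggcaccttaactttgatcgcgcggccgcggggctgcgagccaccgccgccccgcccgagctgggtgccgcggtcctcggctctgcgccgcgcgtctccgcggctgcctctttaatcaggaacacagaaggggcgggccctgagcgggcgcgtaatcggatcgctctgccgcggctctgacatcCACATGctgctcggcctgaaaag
Sstr2: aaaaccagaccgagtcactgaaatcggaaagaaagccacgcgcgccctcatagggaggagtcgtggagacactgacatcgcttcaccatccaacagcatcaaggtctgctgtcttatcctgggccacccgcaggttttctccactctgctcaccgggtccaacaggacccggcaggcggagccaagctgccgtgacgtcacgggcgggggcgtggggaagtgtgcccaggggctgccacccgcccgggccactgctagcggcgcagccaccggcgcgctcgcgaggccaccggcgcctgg
CANNTG reads the same pattern on both strands. The Neurod1 window held 1 E-box, CATATG at position -242 from the start, the Nrp2 window held 1, CACATG at position 28, and the Sstr2 window held 0. Of 32851 mouse promoter windows of this length, 72.3% held at least 1. The form CAGATG, searched on either strand, was in 17.15% of all windows and in none of these 3.

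Newborn neurons made up 9.87% (95% exact interval 9.23 to 10.54) and 7.55% (6.93 to 8.19) of the cells kept from i4F-Nes and 11.6% (10.9 to 12.5) and 8.56% (7.92 to 9.23) of those kept from CTR. The groups overlapped, and within each group replicate 1 was higher. The mean share was 8.71% ± 1.64 in i4F-Nes and 10.1% ± 2.18 in CTR (SD, n = 2 each), a difference of -1.40 percentage points in an exact two-sided permutation test (p = 0.667, where the smallest p that 2 against 2 libraries allow is 0.333). Leaving out CTR replicate 1 turned the difference to 0.147, and leaving out CTR replicate 2, i4F-Nes replicate 1 or i4F-Nes replicate 2 gave -2.94, -2.56 and -0.23 percentage points. Thinning left out cells with under 3800 UMIs. It kept 7890 of 8125 and 5483 of 6931 cells in i4F-Nes and 6167 of 6456 and 6385 of 7160 in CTR. Of these thinned cells, newborn neurons made up 3.80% and 3.52% in i4F-Nes and 5.12% and 3.65% in CTR. The intervals cover counting error only.

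**Figure D1:**
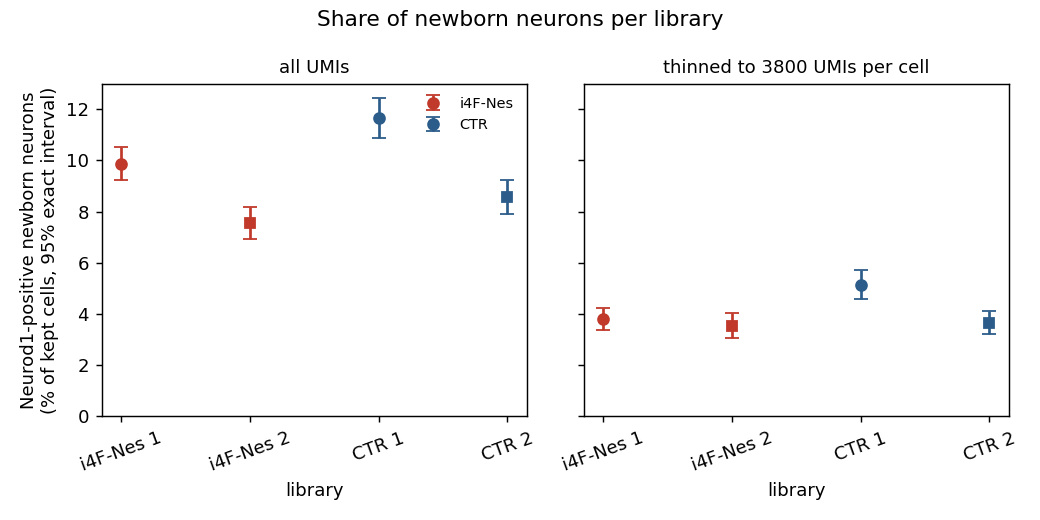
Newborn neurons as a percentage of kept cells in each library (left), and of the kept cells with at least 3800 UMIs after thinning each to 3800 UMIs (right). Red marks are i4F-Nes and blue marks CTR, circles are replicate 1 and squares replicate 2, and bars are 95% exact binomial intervals; the thinned i4F-Nes libraries lie at 3.80% and 3.52%, and the CTR libraries at 5.12% and 3.65%.

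Part of the i4F-Nes denominator is made of cells with over 1 UMI of Krt8, Cytl1 and Lbhd2, which the rule leaves out. Cells with at most 1 such UMI were 7275 of 8125 and 6292 of 6931 in i4F-Nes and 6455 of 6456 and 7160 of 7160 in CTR. Counted over these, newborn neurons made up 11.02% and 8.31% in i4F-Nes and 11.6% and 8.56% in CTR, a difference of -0.44 percentage points (exact permutation p = 0.667). Relative to the Eomes-positive cells, there were 1.03 and 1.44 newborn neurons per cell in i4F-Nes and 1.00 and 0.955 in CTR. Relative to the cells positive for Unc5d and Sema3c, there were 1.09 and 0.714 in i4F-Nes and 1.35 and 0.710 in CTR, so replicates differed more than groups.

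The newborn neurons were next set beside their 2 closest populations, chosen by matching rules, as a description without a test because expression in the same cells defined all 3. Eomes-positive cells (781 and 363 in i4F-Nes, 752 and 642 in CTR) held at least 2 Eomes UMIs, with no condition on Neurod1 and the other conditions as for the newborn neurons. Of 6976 genes averaging 20 CPM or more, 202 (2.90%) were at least 2-fold higher and 138 (1.98%) at least 2-fold lower in newborn neurons in all 4 libraries.

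Genes of the progenitor programme were lower. Of 10 measured intermediate progenitor genes, 7 were at least 2-fold lower in newborn neurons in every library and 0 higher. Elavl4 was among the 7 and is also on the neuronal list below. Neurog2, the proneural factor upstream of Neurod1, had 20.9 and 21.1 CPM in i4F-Nes and 29.1 and 20.7 CPM in CTR newborn neurons, against 668 and 545 CPM in i4F-Nes and 817 and 675 CPM in CTR Eomes-positive cells, a mean log2 difference of -4.88. The growth arrest gene Gadd45g (-2.94), the antiproliferative gene Btg2 (-2.52) and the Notch-modifying fringe enzyme Mfng (-2.12) were likewise lower in all 4 libraries. So were Sox2 (-4.38), a factor of neural progenitors, the kinesin Kif26b (-4.10) and Sox6 (-3.73).

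Some genes of neuronal differentiation were higher. Of 21 genes of the neuronal cytoskeleton and differentiation list, 6 were at least 2-fold higher and 1, Elavl4 (an RNA-binding protein of neurons, -1.23), at least 2-fold lower in every library. The list's median difference was 0.95, beside -0.03 over all 6976 genes, and its members Elavl2 (-0.95) and Rbfox3 (-0.29), also RNA-binding proteins of neurons, were lower in 4 of 4 libraries by less than 2-fold. The splicing regulator Rbfox1 differed by 1.65 on the log2 scale. Bhlhe22, a transcription factor of postmitotic cortical neurons, had 152 and 219 CPM in i4F-Nes and 185 and 202 CPM in CTR newborn neurons, against 37.2 and 51.7 CPM in i4F-Nes and 53.7 and 52.2 CPM in CTR Eomes-positive cells. Neurod2 (0.98), the semaphorin co-receptor Nrp1 (1.58) and Dab1 (1.78), the adaptor that relays reelin signals, were higher in all 4 libraries. The 3 genes with the largest positive difference among the 202 were Tafa2, a secreted neuronal protein (2.78), the cadherin Cdh12 (2.67) and Hs6st2, a heparan sulphate sulphotransferase (2.38).

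3 of the population's own markers did not peak in it. Sstr2 was lower in newborn neurons than in Eomes-positive cells in 4 of 4 libraries (mean log2 difference -0.70), as were Nrn1 (-0.85) and Nrp2 (-0.26). All 3 were in turn higher than in the cells positive for Unc5d and Sema3c, by 0.70, 0.55 and 0.97. By these 3 markers the newborn neurons lay between both populations, and the marker set alone does not separate them from the Eomes-positive cells.

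The cells positive for Unc5d and Sema3c (735 and 733 in i4F-Nes, 555 and 863 in CTR) held at least 2 UMIs of Unc5d, a netrin receptor of multipolar neurons, and a UMI of the guidance cue Sema3c, with at most 1 of Neurod1. They were close to the newborn neurons. Of 6891 genes, 2 were at least 2-fold higher and 1 at least 2-fold lower in newborn neurons in all 4 libraries. Leaving out i4F-Nes replicate 2 or CTR replicate 1 gave 7 and 6 genes in place of 3. The higher genes were Nhlh2, a basic helix-loop-helix factor (38.1 and 93.6 CPM in i4F-Nes and 26.0 and 20.8 CPM in CTR newborn neurons, against 14.9 and 13.3 CPM in i4F-Nes and 12.2 and 8.36 CPM in CTR cells), and the transcriptional cofactor Dach1 (mean log2 difference 1.81). In i4F-Nes replicate 2 most of the Nhlh2 level came from few cells. Nhlh2 had 174 and 396 CPM in i4F-Nes and 73.3 and 142 CPM in CTR members with at least 2 UMIs of Crabp2, Ebf2, Lgals7, Cd109 and Anxa1 together, a subset described below. The other members had 22.3 and 15.1 CPM of Nhlh2 in i4F-Nes and 24.3 and 13.9 CPM in CTR. These were close to the cells positive for Unc5d and Sema3c in i4F-Nes replicate 2 and still over them in the other libraries. The lower gene was Slc4a4, a bicarbonate transporter (-1.18). Short of that limit in at least 1 library, the migration GTPase Rnd3 (1.18) and the calmodulin regulator Pcp4 (0.81) were higher and the upper-layer factor Cux2 (-0.29) and Robo2 (-0.41) lower in newborn neurons in 4 of 4 libraries.

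**Figure D2:**
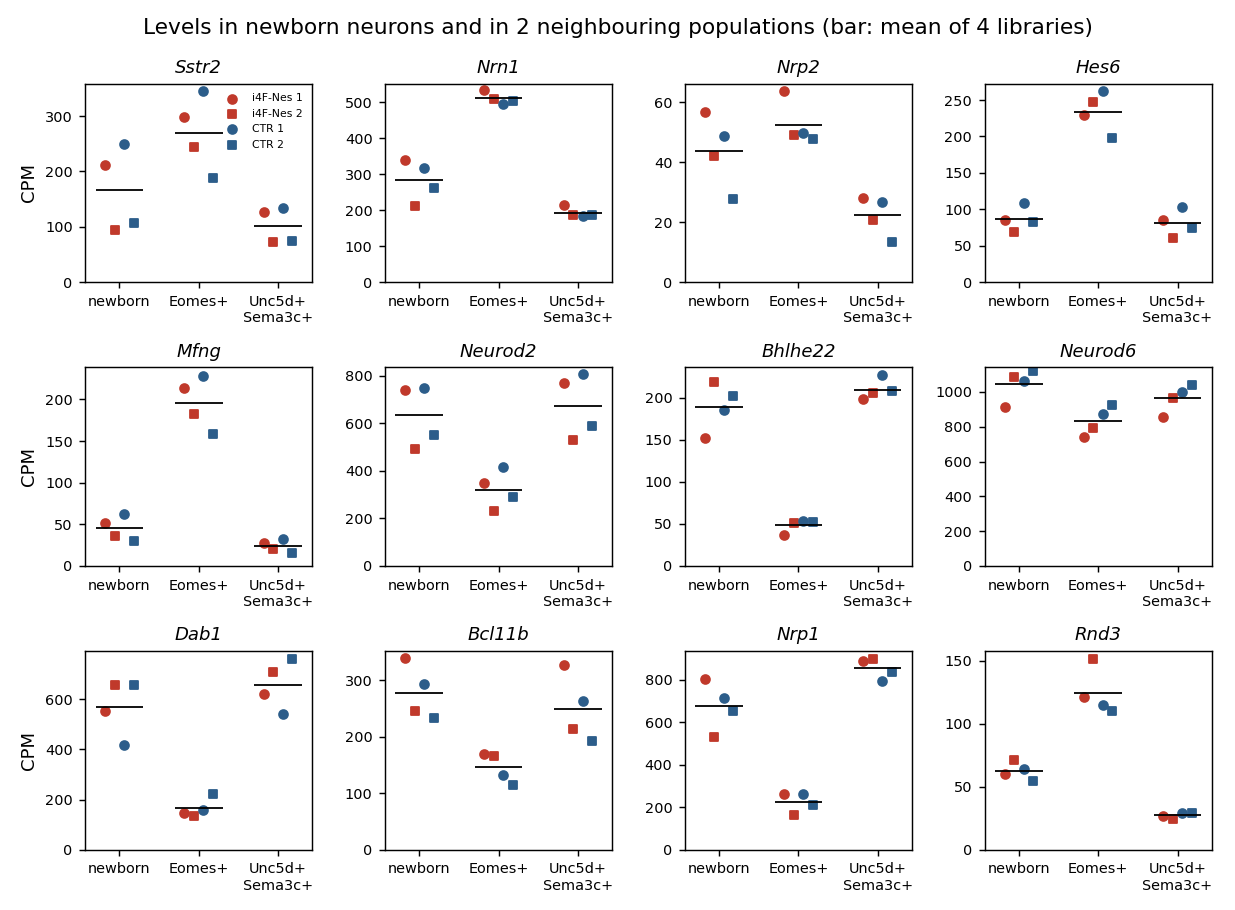
CPM of 12 genes, one panel each, in newborn neurons, Eomes-positive cells and cells positive for Unc5d and Sema3c. Each mark is 1 library (red i4F-Nes, blue CTR, circles replicate 1, squares replicate 2) and the bar is the mean of the 4; Hes6 and Mfng are high in Eomes-positive cells, Bhlhe22 and Dab1 are low there, and Sstr2, Nrn1 and Rnd3 step down across the 3 populations from Eomes-positive to Unc5d- and Sema3c-positive cells.

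Transcripts of layer factors were already caught in many newborn neurons. In cells thinned to 3800 UMIs, Bcl11b, a factor of subcortically projecting neurons, was detected in 60.7% and 44.7% of members in i4F-Nes and 55.6% and 43.3% in CTR. Unthinned, Bcl11b was detected in 89.8% and 71.5% of members in i4F-Nes and 87.9% and 74.6% in CTR. Interneurons express Bcl11b themselves, and it was detected in 66.9% and 56.8% of thinned i4F-Nes and 66.1% and 69.2% of thinned CTR Gad2-positive cells. Tbr1, a factor of deep-layer neurons, was detected in 30.2% and 28.4% of thinned i4F-Nes and 22.9% and 26.4% of thinned CTR members, against 2.82% to 4.21% of Gad2-positive cells. Unthinned, Tbr1 was detected in 72.1% and 62.9% of members in i4F-Nes and 62.1% and 58.6% in CTR, against 7.69% and 15.3% of Gad2-positive cells in i4F-Nes and 14.0% and 12.7% in CTR.

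Gene expression was then compared between i4F-Nes and CTR newborn neurons, which asks what transient induction of the factors left in cells that met the rule. Of the cells with at least 2 Neurod1 UMIs, 215 and 89 in i4F-Nes exceeded the limit on Krt8, Cytl1 and Lbhd2, against 0 and 0 in CTR. The comparison leaves those cells out and says nothing about them. Almost nothing passed. Of 13206 genes tested with edgeR's quasi-likelihood test and Benjamini-Hochberg adjustment at 0.05, 1 was higher in i4F-Nes and 0 were lower, so percent called was 0.00757. At an unadjusted p under 0.05 there were 324 genes, 256 of them higher and 68 lower, and the median log2 fold change over all genes was -0.00. In simulated sums of the same size the test recovered 52.5% of 2-fold and 99.0% of 4-fold changes, with 4 and 10 false calls. The simulated spread followed the trend fitted over genes, without cells that carry most of a gene's UMIs. Recovery of real changes that lie in few cells was therefore not measured. DESeq2 called 39 genes, 36 higher and 3 lower. Leaving out i4F-Nes replicate 1, i4F-Nes replicate 2, CTR replicate 1 or CTR replicate 2 gave 73, 3, 6 and 54 genes.

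The gene that passed was Hba-a1, an alpha-globin of red blood cells (chromosome 11, 32283511 to 32284465), and it rested on 3 barcodes. Hba-a1 stood at 286 and 246 CPM in i4F-Nes, against 1.62 and 1.48 CPM in CTR newborn neurons, which differ by 7.38 ± 0.210 on the log2 scale (SE over 2 libraries per group, edgeR adjusted p = 0.000234). Its neighbour Hba-a2 (6.51, edgeR adjusted p = 0.0560) is a near-identical copy whose reads cannot be split with certainty, and the beta-globins Hbb-bt (7.20, adjusted p = 0.0560) and Hbb-bs (6.52, adjusted p = 0.167), which resemble each other in the same way, did not pass. Haemoglobin UMIs numbered 25975 and 13706 in i4F-Nes and 339 and 70 in CTR members. Of these, 25334 came from 2 barcodes of i4F-Nes replicate 1 and 13656 from 1 barcode of i4F-Nes replicate 2, and no other member of any library held more than 7. All 3 barcodes were among those removed as likely doublets, that is, droplets with more than 1 cell. With these barcodes taken out, a choice made once their values were known, 0 genes passed (315 at an unadjusted p under 0.05) and Hba-a1 differed by 0.71 (edgeR adjusted p = 1.00). Over all alternatives the adjusted p of Hba-a1 ran from 3.25e-165 to 1.00.

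The markers of the population did not pass. Sstr2 differed by -0.23 ± 0.517 and Nrn1 by -0.10 ± 0.248 on the log2 scale, and both turned positive without CTR replicate 1 or i4F-Nes replicate 2 (SE, edgeR adjusted p = 1.00 for each over 2 libraries per group). Nrp2 differed by 0.35 ± 0.275 (edgeR adjusted p = 1.00). Within i4F-Nes it was higher in a subset described below, which held 148 of 728 Nrp2 UMIs in replicate 1 and 193 of 325 in replicate 2. With such cells left out of all libraries Nrp2 differed by -0.11.

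**Figure D3:**
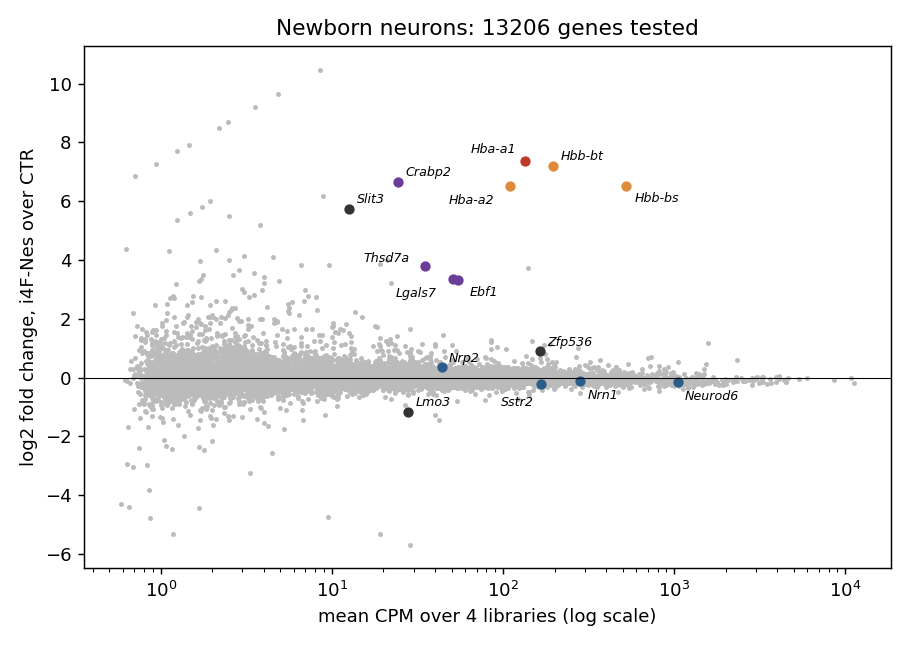
Log2 fold change of i4F-Nes over CTR in newborn neurons (vertical axis) against the mean CPM of the 4 libraries (horizontal axis, log scale), 1 point per tested gene. Haemoglobin genes lie above 6, Crabp2, Thsd7a, Lgals7 and Ebf1 (purple) above 3, and the population's markers with Neurod6 (blue) between -0.23 and 0.35.

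Several genes separated the groups without passing. The smallest exact two-sided permutation p for 2 against 2 libraries is 0.333, so separation alone, here and below, is weak evidence. Of 6913 genes averaging 20 CPM or more, 10 were at least 2-fold higher in both i4F-Nes than in both CTR libraries, 0 lower. The 10 were the 4 haemoglobins, which rested on few barcodes, and Crabp2, Nxph1, Thsd7a, Lgals7, Ebf3 and Nrxn3. Apart from the haemoglobins, they were high in the i4F-Nes subset described below. Zfp536, Lmo3 and Slit3, given next, were not among the 10. By replicate number, 17 genes were at least 2-fold higher in replicate 2 and 3 in replicate 1, with sex-linked genes left out of each count. Separation at any fold was not counted over all genes. Zfp536, a zinc finger repressor of neuronal differentiation in cell culture, stood at 217 and 216 CPM in i4F-Nes, against 117 and 111 CPM in CTR, with no overlap (0.90 ± 0.140, edgeR adjusted p = 0.660). Without the members that hold the 5 transcripts described below, Zfp536 differed by 0.37. In i4F-Nes those members had 490 and 624 CPM of Zfp536 and the others 185 and 110 CPM, and in CTR the others had 119 and 106 CPM, so replicate 2 of both groups was alike outside them. Lmo3, a LIM-only transcriptional cofactor, was lower in i4F-Nes without overlap, at 18.9 and 16.0 CPM in i4F-Nes and 44.5 and 32.2 CPM in CTR (-1.16 ± 0.205, edgeR adjusted p = 0.851). The axon guidance cue Slit3 stood at 23.7 and 26.1 CPM in i4F-Nes, against 0.772 and 0 CPM in CTR, with its UMIs in 15 and 22 i4F-Nes members (5.75 ± 0.642, edgeR adjusted p = 0.289). Over their alternatives the adjusted p ran from 0.000607 to 1.00 for Zfp536, from 3.74e-05 to 1.00 for Lmo3 and from 9.90e-43 to 1.00 for Slit3. Among genes averaging at least 10 CPM, the non-coding Gm32647 (0.91) and the sialic acid-modifying enzyme Wscd1 (1.21) were the other members of the 10 of lowest p. Those 10 also held Crabp2 and the 4 haemoglobins.

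Gene lists of the cells' own programme showed no member that passed, where 1 of 13206 genes passed at all (0.00757%). A count of 0 for a short list, here and in the lists below, is therefore no result about its genes. Of 11 tested intermediate progenitor genes 0 passed, with a median log2 fold change of -0.15. Of 11 tested neurogenic basic helix-loop-helix genes and partners 0 passed, with a median log2 fold change of -0.10 beside -0.00 over all genes. Neurod6 stood at 912 and 1089 CPM in i4F-Nes, against 1065 and 1122 CPM in CTR, and Tcf4, the partner of these factors, at 2881 and 2373 CPM in i4F-Nes and 3290 and 2821 CPM in CTR. Both overlapped between groups.

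Of 27 genes of migration and the multipolar stage 0 passed (median -0.01). Unc5d stood at 3248 and 1797 CPM in i4F-Nes, against 2909 and 2413 CPM in CTR, and Robo2, a receptor for Slit proteins, at 3937 and 2763 CPM in i4F-Nes and 3093 and 3438 CPM in CTR. The i4F-Nes libraries thus spanned both CTR libraries. Of 21 genes of the neuronal cytoskeleton 0 passed (median 0.11), the microtubule gene Tuba1a standing at 7806 and 8857 CPM in i4F-Nes and 9360 and 8166 CPM in CTR. Stmn1, a tubulin-binding protein, stood at 4719 and 5940 CPM in i4F-Nes, against 5117 and 5739 CPM in CTR.

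Among layer identity genes none passed either. Of 14 upper-layer genes 0 passed (median 0.07), 9 of them with a positive log2 fold change. Of 12 deep-layer and subplate genes 0 passed (median -0.00), with Sox5, a factor of early-born neurons, at 1264 and 789 CPM in i4F-Nes and 1184 and 1100 CPM in CTR. Nfia, a nuclear factor I family member, stood at 1152 and 814 CPM in i4F-Nes, against 1198 and 919 CPM in CTR.

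Of 14 Notch pathway genes 0 passed (median -0.08). Maml3, a co-activator of Notch transcription, did not overlap, at 238 and 172 CPM in i4F-Nes and 167 and 146 CPM in CTR (0.36 ± 0.191, edgeR adjusted p = 1.00). Rbpj, the DNA-binding partner of Notch, stood at 96.8 and 94.5 CPM in i4F-Nes, against 101 and 95.8 CPM in CTR. Of 22 p53 targets 0 passed (median -0.02), with 1 at an unadjusted p under 0.05. That gene was Cdkn1a, the cell cycle inhibitor p21, named after its values were seen, at 5.30 and 19.9 CPM in i4F-Nes and 1.00 and 2.73 CPM in CTR with no overlap (2.76 ± 0.799, edgeR adjusted p = 1.00). Its UMIs lay in 34 and 51 i4F-Nes members and in 11 and 10 CTR members. Bax, a mediator of cell death, stood at 202 and 248 CPM in i4F-Nes, against 209 and 250 CPM in CTR. Trp53 itself stood at 103 and 66.7 CPM in i4F-Nes, against 117 and 86.8 CPM in CTR.

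The induced factors were at low levels in these cells. Pou5f1 stood at 2.80 and 2.34 CPM in i4F-Nes, from 36 and 18 UMIs, and at 1.31 and 1.25 CPM in CTR, from 17 and 11 UMIs (0.98 ± 0.407, edgeR adjusted p = 1.00). The groups did not overlap for Pou5f1. Of the 4 factors 0 passed, and Sox2, Klf4 and Myc had negative log2 fold changes. Of 21 listed pluripotency genes 4 passed the filter on low counts and 0 were called, and 6 were at 0 UMIs in all libraries. The 4 had a median log2 fold change of 0.88, from -1.75 (Klf2) to 5.34, and 3 were positive. Of the 4, 2 had an unadjusted edgeR p under 0.05. The list summed to 10.1 and 12.7 CPM in i4F-Nes and 16.9 and 6.94 CPM in CTR. The zinc finger factor Klf2, on that list, stood at 1.64 and 3.38 CPM in i4F-Nes, against 12.9 and 3.19 CPM in CTR, where CTR replicate 1 alone was high. Transcripts of the cassette and of the endogenous genes cannot be told apart in these counts.

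Markers of other cells stood beside these results as follows, and their part in them was not tested. Of 12 immediate early genes 0 passed, with summed levels of 638 and 624 CPM in i4F-Nes and 1083 and 629 CPM in CTR. Of 8 endothelial and mural markers 0 passed, 4 of them at an unadjusted p under 0.05, with sums of 2.18 and 16.5 CPM in i4F-Nes and 34.3 and 15.4 CPM in CTR. Kcnj8, Vtn and Rgs5 made up 7 and 9 UMIs in i4F-Nes and 148 and 101 UMIs in CTR members, of which 133 and 88 in CTR came from 1 member of each library. Radial glia markers summed to 712 and 750 CPM in i4F-Nes and 685 and 815 CPM in CTR outside the genes of the rule, with 0 of 10 passing. Genes of the S, G2 and M phases summed to 189 and 170 CPM in i4F-Nes and 203 and 167 CPM in CTR, with 0 of 18 passing. Microglia markers summed to 3.43 and 8.19 CPM in i4F-Nes and 2.39 and 34.4 CPM in CTR, and oligodendrocyte precursor markers to at most 1.71 CPM in every library.

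A subset of the i4F-Nes newborn neurons carried transcripts of a different kind. The genes that lead the Krt8-, Cytl1- and Crabp2-positive cells found in the i4F-Nes libraries formed a list of 19, chosen on these same libraries, so its direction is not independent evidence. Among newborn neurons 14 of them were tested, 0 passed, and 14 had a positive log2 fold change with a median of 3.34, a value that did not move with Uncx set to its bound. Uncx, a homeobox gene, held 165 UMIs in i4F-Nes and 0 in CTR members, at least 58.3-fold higher against a floor of 3 UMIs over the group. The list summed to 134 and 701 CPM in i4F-Nes and 35.8 and 43.2 CPM in CTR, so i4F-Nes replicate 2 was far over the other libraries.

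Crabp2, a binding protein of retinoic acid (chromosome 3, 87948666 to 87953376), stood at 18.2 and 78.0 CPM in i4F-Nes, against 0.540 and 0.341 CPM in CTR (6.66 ± 1.06, edgeR adjusted p = 1.00). Thsd7a, a thrombospondin-domain protein, stood at 20.5 and 111 CPM in i4F-Nes, against 4.86 and 4.32 CPM in CTR, and the galectin Lgals7 at 33.9 and 153 CPM in i4F-Nes and 9.11 and 8.76 CPM in CTR. Ebf1, a helix-loop-helix factor of early neurons, stood at 15.1 and 184 CPM in i4F-Nes, against 9.18 and 10.47 CPM in CTR. The groups did not overlap for any of these 4, and each had an edgeR adjusted p of 1.00. Without i4F-Nes replicate 1, which leaves replicate 2 alone, each passed, with an edgeR adjusted p of 1.12e-05 for Crabp2, 1.33e-05 for Ebf1, 1.35e-05 for Lgals7 and 1.52e-05 for Thsd7a. Without i4F-Nes replicate 2 only Crabp2 of the 4 passed, by 5.25 (edgeR adjusted p = 0.0158). Over all alternatives those p reached 1.00 in each case, and the lowest were 9.85e-06 for Crabp2 and those without i4F-Nes replicate 1 for the others.

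The transcripts were concentrated in few cells. At least 2 UMIs of Crabp2, Ebf2, Lgals7, Cd109 and Anxa1 together were held by 71 of 802 members (8.85%, 95% exact interval 6.98 to 11.04) and 94 of 523 members (18.0%, 14.8 to 21.5) of the i4F-Nes libraries. In CTR they were held by 19 of 752 members (2.53%, 1.53 to 3.92) and 18 of 613 members (2.94%, 1.75 to 4.60). The intervals cover counting error within a library only, and the 2 i4F-Nes libraries lay further apart than their counting error. No test is given, since the genes were chosen on the same libraries. In Eomes-positive cells the share was 11.3% and 16.8% in i4F-Nes and 4.52% and 2.49% in CTR, and in cells positive for Unc5d and Sema3c it was 5.31% and 4.37% in i4F-Nes and 1.26% and 1.62% in CTR. Of the members, 62 and 82 in i4F-Nes and 17 and 13 in CTR were not marked as doublets. The median depth of these members was 16602 and 16438.5 UMIs in i4F-Nes, against 13664 and 12863 UMIs in the other i4F-Nes members.

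**Figure D4:**
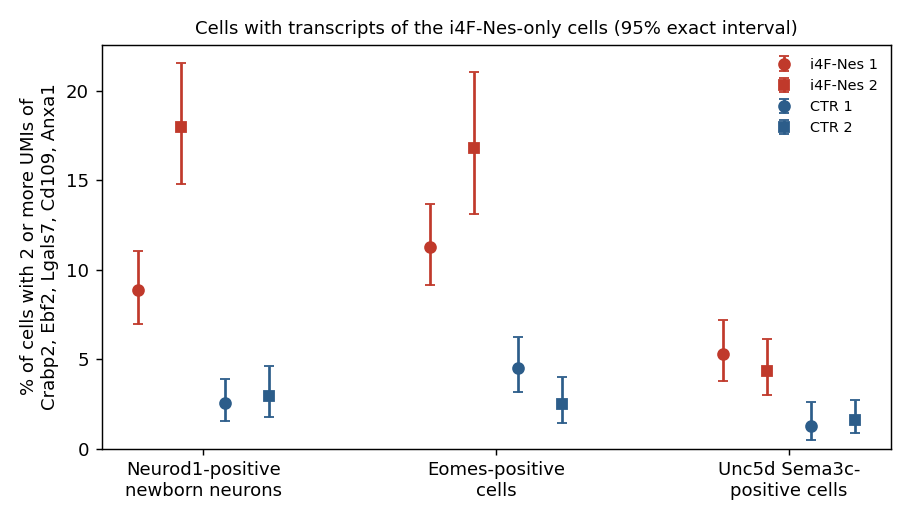
Percentage of cells with at least 2 UMIs of Crabp2, Ebf2, Lgals7, Cd109 and Anxa1 together, in newborn neurons, Eomes-positive cells and cells positive for Unc5d and Sema3c. Marks are libraries (red i4F-Nes, blue CTR, circles replicate 1, squares replicate 2) with 95% exact binomial intervals; i4F-Nes newborn neurons reach 8.85% and 18.0%, against 2.53% and 2.94% in CTR.

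Apart from the 5 genes that define it, the i4F-Nes subset differed widely from the other i4F-Nes newborn neurons. Nrxn3, a presynaptic adhesion protein, stood at 851 and 1847 CPM in the subset and at 20.9 and 41.8 CPM in the other i4F-Nes members. Thsd7a stood at 142 and 501 CPM in the subset against 6.35 and 9.66 CPM, and Ebf1 at 118 and 846 CPM against 3.13 and 12.6 CPM. Cdkn1a stood at 34.4 and 85.1 CPM in the subset against 1.91 and 2.95 CPM. Nrxn3 and Cdkn1a were named after their values were seen, and all these values are a description.

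Pan-neuronal genes were not lower in the i4F-Nes subset, with the neuronal tubulin Tubb3 at 2132 and 2839 CPM in the subset and 1886 and 1798 CPM in the other i4F-Nes members, and the microtubule-associated Dcx at 689 and 755 CPM in the subset and 539 and 573 CPM in the others. Nrp2 was higher, at 111 and 122 CPM in the subset and 50.4 and 21.6 CPM in the others. The netrin receptor Unc5d was lower, at 2043 and 541 CPM in the subset and 3388 and 2123 CPM in the others. Neurod1 itself stood at 281 and 366 CPM in the subset and 236 and 242 CPM in the others. Markers of other neurons were high in the i4F-Nes subset. The interneuron markers summed to 300 and 667 CPM in it, against 32.5 and 39.1 CPM in the others, and the Cajal-Retzius markers to 845 and 1905 CPM, against 55.4 and 65.5 CPM. The Cajal-Retzius sum includes Ebf1, at 118 and 846 CPM in the subset, and Ebf3, at 113 and 298 CPM. Ebf1 and Ebf3 are also on the list of 19 genes chosen on these libraries, so that sum is not independent of the choice. The neuropeptide gene Sst stood at 13.5 and 166 CPM in the subset, the homeobox gene Lhx1 at 8.24 and 64.3 CPM, the calcium-binding Calb2 at 24.7 and 98.3 CPM and Gad1 at 6.74 and 10.7 CPM. Reln, the product of Cajal-Retzius cells, was unlike between the libraries, at 234 and 6.30 CPM in the subset and 13.3 and 10.2 CPM in the others. In the CTR subset the interneuron markers summed to 28.9 and 44.6 CPM and the Cajal-Retzius markers to 779 and 2668 CPM. Their part in the group differences was not tested. Of the interneuron markers 9 were tested between the groups over all members and 0 passed, with sums of 60.4 and 169 CPM in i4F-Nes and 33.8 and 50.4 CPM in CTR. Of 11 tested Cajal-Retzius markers 0 passed, with sums of 138 and 445 CPM in i4F-Nes and 70.7 and 174 CPM in CTR.

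The few CTR cells that met the same limit had other transcripts. Reln stood at 234 and 6.30 CPM in the i4F-Nes subset, against 473 and 1754 CPM in the CTR subset. Trp73, a p53-family factor of Cajal-Retzius cells, stood at 8.24 and 0 CPM in the i4F-Nes subset, against 22.2 and 48.9 CPM in the CTR subset. The i4F-Nes subset held 155 and 371 CPM of Crabp2, where the CTR subset held 6.66 and 2.13 CPM from 3 and 1 UMIs. Nrxn3, at 851 and 1847 CPM in the i4F-Nes subset, stood at 6.66 and 14.9 CPM in the CTR subset. With the subset left out of all libraries, edgeR called 0 genes (183 had an unadjusted p under 0.05). Crabp2 then differed by 2.82, Thsd7a by 0.73, Lgals7 by 0.88 and Ebf1 by -0.10. Crabp2 and Lgals7 helped to define the cells left out, so their smaller differences were built into that choice. Thsd7a and Ebf1 come from the list chosen on these libraries, so these values are a description.

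**Figure D5:**
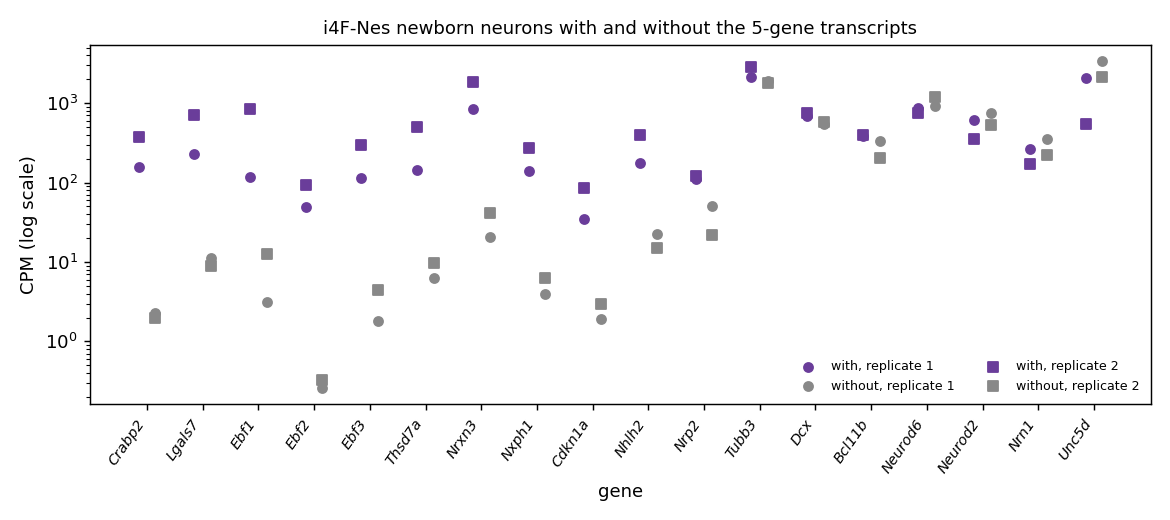
CPM (log scale) of 18 genes in i4F-Nes newborn neurons that hold at least 2 UMIs of Crabp2, Ebf2, Lgals7, Cd109 and Anxa1 together (purple) and in those that do not (grey), for replicate 1 (circles) and replicate 2 (squares). Nrxn3, Thsd7a, Ebf1 and Cdkn1a are higher in the purple cells, Unc5d is lower, and Tubb3 and Dcx are somewhat higher; Crabp2, Ebf2 and Lgals7 helped to define the cells.

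Whether the i4F-Nes difference in newborn neurons was unlike that in the neighbouring populations was tested as an interaction in edgeR, with the library as a block. Against the cells positive for Unc5d and Sema3c, 0 of 12804 genes passed (percent called 0), with 310 at an unadjusted p under 0.05 and a lowest adjusted p of 0.0841. Against Eomes-positive cells, 0 of 13080 genes passed (percent called 0), with 567 at an unadjusted p under 0.05 and a lowest adjusted p of 0.0859 in edgeR. Leaving out i4F-Nes replicate 1, i4F-Nes replicate 2, CTR replicate 1 or CTR replicate 2 gave 265, 2, 11 and 16 genes in the first and 43, 2, 2 and 33 genes in the second. Lmo3, whose groups did not overlap in newborn neurons, had an interaction of -0.92 on the log2 scale against the cells positive for Unc5d and Sema3c (edgeR adjusted p = 0.146) and -0.27 against Eomes-positive cells (edgeR adjusted p = 0.982). Other settings on all 4 libraries called genes too, 2 in each test after doublet removal and 8 against Eomes-positive cells with DESeq2 size factors.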

How the data were processed

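The deposited matrices hold raw UMI counts of genes by barcodes, 1 matrix per library, made by the authors with cellranger 7.0.1 per the file headers, and with the build mm10 per the submitters' processing notes. The sources used here do not state whether introns were counted or free RNA removed. The members, the neighbouring populations and the 21 gene lists were chosen with earlier results of these data known.

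Barcodes were kept with at least 1000 UMIs, 500 genes and at most 10% mitochondrial UMIs. Counts were summed per library over the selected cells and tested with edgeR 4.0.16 in R 4.3.3 (TMM, filterByExpr, robust quasi-likelihood test, Benjamini-Hochberg at 0.05). The 13 genes of the rule counted in library sizes and were not tested. Standard errors came from the fold change and the F statistic. DESeq2 1.42.0, other limits, each library left out and doublet removal (Scrublet in scanpy 1.11.5, highest scores at 0.8% per 1000 barcodes) were alternatives. A planned edgeR test between populations was replaced by a 2-fold rule in all 4 libraries, because the populations were chosen by expression. The scripts were tested on simulated data. Thinning took 3800 UMIs per cell with seed 1 and left out cells with fewer.

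Genes were named by a rule: those past adjusted p 0.05 with a mean of at least 10 CPM, filled to 10 by lowest p; the markers; the most abundant members of each list, up to 2 and for some 4; and the genes furthest apart between populations. Coordinates are GENCODE M21, matched by gene ID for 177 of 177 genes. 1 gene of the upper-layer list is not reported here by name.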

Additional observations from a re-analysis of the deposited data

How the results depend on the processing

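The number of genes that passed between i4F-Nes and CTR newborn neurons, 1, was 0 with members limited to 0 UMIs of Krt8, Cytl1 and Lbhd2, to at least 3 UMIs of Neurod1, to at most 1 UMI of Crabp2, Ebf2, Lgals7, Cd109 and Anxa1, to cells not removed as doublets, or to cells under 50 haemoglobin UMIs. It was 39 in DESeq2, 179 with all genes kept whatever their counts, and 3 to 73 with 1 library left out. With the replicate number as a block it was 113 (104 higher, 9 lower), but no label pairs the libraries, and the deviations of replicate 1 in both groups correlated at r = 0.454 across genes. The limits on the 5 genes and on haemoglobin were chosen after seeing the data. The interaction with Unc5d- and Sema3c-positive cells, 0 genes, became 1 without cells holding over 1 UMI of the 5 genes, 2 after doublet removal, 21 without a filter and 2 to 265 with 1 library left out. The interaction with Eomes-positive cells, 0 genes, became 8 with DESeq2 size factors, 2 after doublet removal, 224 without a filter and 2 to 43 with 1 library left out. Without a filter, 1427 genes in place of 340 differed from Eomes-positive cells, and 150 in place of 3 from Unc5d- and Sema3c-positive cells. Those counts were 349 to 439 and 4 to 7 with 1 library left out. The share difference ran from -2.94 to 0.147 percentage points with 1 library left out and kept its sign in the other alternatives. In these fits with 1 library left out, the lone library was assumed to vary like the other group. Of 420 values for 30 named genes, 22 reversed, all of genes that did not pass. With 1 library left out the ranges were -0.92 to 0.48 for Sstr2, -0.47 to 0.19 for Nrn1, -0.25 to 0.22 for Robo2, -0.58 to 0.25 for Unc5d, -0.21 to 0.0059 for Tuba1a, -0.25 to 0.12 for Stmn1, -0.54 to 0.10 for Sox5, -0.39 to 0.081 for Nfia and -0.23 to 0.10 for Bax. Without cells holding the 5 genes, Nrp2 was -0.11, Unc5d 0.012 and Ebf1 -0.10. Robo2 was -0.012 with at least 3 Neurod1 UMIs, -0.015 after doublet removal and -0.0086 with the replicate block. The cause of these changes was not tested. With 2 libraries per group, most 2-fold differences lay near the limit of detection.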
